A study of Mus musculus with 17 samples.

Results

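The 10 genes described here encode collagens and other extracellular matrix products of connective tissue fibroblasts, together with 1 fibroblast receptor. They are Col1a1, Col1a2, Col3a1, Col6a1, Dcn, Lum, Dpt, Fn1, Sparc and Pdgfra. They were found in the deposited count tables by NCBI gene number, which was matched to a symbol through RefSeq, and all 10 were present among 27179 genes. RNA of colon macrophage preparations was counted in 17 libraries from C57BL/6(h-2b) mice of 8 weeks, and the labels give each library 1 mouse number, some of which recur across groups. The study set mice lacking MCJ (KO), a mitochondrial membrane protein encoded by Dnajc15 that restrains respiratory complex I, against wild-type mice (WT). Mice of the NN groups had no treatment named in their labels. NP mice had dextran sulfate sodium (DSS), which injures the colon epithelium when it is drunk, for 6 days. PP mice had a broad-spectrum antibiotic for 7 days and then DSS for 6 days. The groups were KO_NN with 2 libraries and WT_NN, KO_NP, WT_NP, KO_PP and WT_PP with 3 each. KO and WT in NN, NP and PP are named as in the labels below, and a library is named by its group and its number. The preparations came from collagenase digestion and washes of colon, and no cell sort is named, so a library can hold RNA of any cell of the digest.

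Fibroblasts of the intestinal lamina propria and submucosa build the matrix that carries the epithelium. Type I collagen is a trimer of Col1a1 and Col1a2 chains, and type III collagen, a trimer of Col3a1 chains, forms thinner fibrils beside it. Decorin (Dcn), lumican (Lum) and dermatopontin (Dpt) bind these fibrils and shape their spacing, fibronectin (Fn1) and osteonectin (Sparc) bind collagen and cells, and Pdgfra is a receptor through which platelet-derived growth factor acts on fibroblasts. Fn1 is also made by macrophages and several other cell types, and Sparc by endothelium, so neither marks fibroblasts alone.

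The libraries held 29194744 to 37083344 counts, of which 23.12% to 50.37% lay on mitochondrially encoded genes. Levels are given as CPM, a gene's counts per library total, scaled by edgeR's trimmed mean of M-values (TMM). Dnajc15 had 21 to 121 counts in the 8 KO libraries and 359 to 1534 counts in the 9 WT libraries, so every library stood on the side of its genotype label. The tissue label did not carry over to the markers in all groups. The summed level of 12 macrophage markers was 38.3 to 44.1 CPM of nuclear counts in KO_NN and 15.4 to 40.1 in WT_NN, while 10 colonocyte markers summed to at least 9600 in every library. Xist, the RNA of the inactive X chromosome in female cells, was unevenly spread over the treatments, and the labels name no sex. It had 1100 to 7950 counts in 4 of the 5 NN libraries, 3822 in KO_NP library 21, and 0 to 9 counts in the others. KO_NP library 21 also had 1478 counts of 4 Y-linked genes, where the other Xist-rich libraries had 0 to 70. WT_NN library 3, with 1 Xist count, and WT_PP library 12 stood apart from the rest of their groups in the 10 genes, as described below.

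All 10 genes were placed by GENCODE M21 on GRCm38. Col1a1 lies at chr11:94936224-94953042 and Sparc at chr11:55394500-55423183. Col1a2 lies at chr6:4504814-4541544 and Pdgfra at chr5:75152292-75198215. Chromosome 1 holds Col3a1 at chr1:45311538-45349706, Fn1 at chr1:71585520-71653200 and Dpt at chr1:164796644-164824266. Chromosome 10 holds Col6a1 at chr10:76708792-76726168 and the neighbours Dcn at chr10:97479609-97518143 and Lum at chr10:97565128-97572703. Col6a1, Fn1 and Sparc are on the minus strand and the other 7 on the plus strand. In 7 of the 10 no exon base is shared with another gene. Fn1 shares 292 exon bases with the antisense gene Apol7d, 2.5% of its exons. Pdgfra shares 652 bases with 3 other genes, 6.5% of its exons, and Col3a1 shares 141 bases, 1.44%. The strand setting of the counting is not given in the sources used here, so reads on those bases cannot be assigned to 1 gene.

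Promoter windows from RefSeq (GRCm38.p6), from 250 bases before a start to 50 bases after it, were at hand for 6 of the 10 genes. Most of the 10 genes had levels that went up and down together between libraries, and the windows are shown to let their promoters be compared. Both strands were searched for a CCAAT box (CCAAT or ATTGG), a GC box (GGGCGG or CCGCCC) and a TATA box (TATAAA or TTTATA), letter patterns that share no bases with each other here, and matches are in capitals. The windows that held a match are Col1a2 at chr6:4505368-4505667, Col3a1 at chr1:45311288-45311587 and Dpt at chr1:164796413-164796712, all on the plus strand.
Col1a2: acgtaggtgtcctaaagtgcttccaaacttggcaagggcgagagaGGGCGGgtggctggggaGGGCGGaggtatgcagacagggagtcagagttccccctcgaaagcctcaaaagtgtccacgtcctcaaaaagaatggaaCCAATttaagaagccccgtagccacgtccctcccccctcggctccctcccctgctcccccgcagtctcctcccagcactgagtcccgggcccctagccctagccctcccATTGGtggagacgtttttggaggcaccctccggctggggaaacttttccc
Col3a1: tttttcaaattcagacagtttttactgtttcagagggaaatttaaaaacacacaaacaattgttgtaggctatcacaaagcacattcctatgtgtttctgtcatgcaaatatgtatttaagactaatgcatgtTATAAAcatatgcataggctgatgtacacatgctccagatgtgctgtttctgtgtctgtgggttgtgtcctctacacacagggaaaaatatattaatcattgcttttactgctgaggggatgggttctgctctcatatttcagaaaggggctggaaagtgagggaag
Dpt: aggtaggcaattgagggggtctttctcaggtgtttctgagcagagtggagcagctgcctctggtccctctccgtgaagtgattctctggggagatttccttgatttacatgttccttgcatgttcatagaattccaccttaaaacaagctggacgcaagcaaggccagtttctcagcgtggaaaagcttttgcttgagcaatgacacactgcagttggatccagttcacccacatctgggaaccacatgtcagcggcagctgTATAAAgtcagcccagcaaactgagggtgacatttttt
The Col1a2 window held 4 matches, GC boxes at its bases 46 and 63, a CCAAT box at base 142 and the reverse form, ATTGG, at base 251, where transcription is annotated to start. The Col3a1 and Dpt windows each held 1 TATA box, at bases 134 and 263. The windows of Col6a1, Pdgfra and Sparc held none of these letters. No pattern was shared by all 6 windows. Over 32851 promoter windows of the same length, 37.4% held a CCAAT box, 35.7% a GC box and 13.6% a TATA box.

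For the fibrillar collagen genes the mean of the NN libraries was below that of the NP libraries in each genotype. In KO libraries Col1a1 had 0.579 and 0.154 CPM in NN, 16.4, 6.35 and 4.74 CPM in NP, and 1.06, 4.77 and 6.74 CPM in PP. In WT libraries it had 0, 3.7 and 8.83 CPM in NN, 6.03, 7.35 and 36.3 CPM in NP, and 2.92, 16.0 and 98.1 CPM in PP. Every treated KO library was above both KO_NN libraries, and in WT the groups overlapped. Its partner chain Col1a2 had 0.21 and 0.823 CPM in KO_NN, 8.57, 7.13 and 1.73 CPM in KO_NP, and 1.93, 3.39 and 0.763 CPM in KO_PP. It had 0, 0 and 5.39 CPM in WT_NN, 6.8, 6.22 and 26.6 CPM in WT_NP, and 1.72, 9.96 and 75.3 CPM in WT_PP. The KO_PP libraries overlapped KO_NN, and WT_NP lay above WT_NN in all its libraries. Col3a1 was the most abundant of the 4 collagen genes per kb of exon in every group mean. It had 0.763 and 1.85 CPM in KO_NN, 65.6, 23.9 and 18.1 CPM in KO_NP, and 6.26, 29 and 19.3 CPM in KO_PP. It had 0.0409, 8.07 and 44.9 CPM in WT_NN, 39.2, 45.7 and 118 CPM in WT_NP, and 14.5, 40.4 and 258 CPM in WT_PP. WT_NN library 3 and WT_PP library 12 held the high values of their groups in all 3 genes, which makes the spread within these groups wide.

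Col6a1 encodes a chain of type VI collagen, which forms beaded filaments around cells. Its levels were low in all 6 groups. KO libraries had 0.5 and 0.103 CPM in NN, 2.93, 2.81 and 1.93 CPM in NP, and 1.33, 0.693 and 0.0318 CPM in PP. WT libraries had 0.0819, 0 and 3.75 CPM in NN, 2.22, 1.16 and 7.12 CPM in NP, and 0.199, 2.58 and 6.17 CPM in PP. All KO_NP libraries were above all KO_NN and all KO_PP libraries, and the WT groups overlapped each other.

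Decorin had the highest mean per kb of exon in 4 of the 6 groups. Dcn had 4.55 and 2.78 CPM in KO_NN, 85.6, 80.1 and 42.2 CPM in KO_NP, and 30.9, 39.0 and 42.6 CPM in KO_PP. It had 9.37, 11.3 and 87.5 CPM in WT_NN, 67.7, 42.2 and 78.4 CPM in WT_NP, and 30.5, 67.2 and 262 CPM in WT_PP. Treated KO libraries were all far above untreated ones, while WT_NN library 3 was above every WT_NP library. Lumican, from the neighbouring gene, had 0.5 and 0.0257 CPM in KO_NN, 16.6, 10.1 and 6.38 CPM in KO_NP, and 2.68, 5.52 and 1.46 CPM in KO_PP. Lum had 0.0409, 5.64 and 14 CPM in WT_NN, 19.1, 9.07 and 27.0 CPM in WT_NP, and 6.99, 10.8 and 67.0 CPM in WT_PP. In each PP library of KO mice Lum was below every KO_NP library and below every WT_PP library. Dpt had 1.5 and 0.231 CPM in KO_NN, 13.8, 8.81 and 8.32 CPM in KO_NP, and 3.38, 3.52 and 10.7 CPM in KO_PP. It had 1.27, 11.5 and 21.3 CPM in WT_NN, 12.0, 8.78 and 24.4 CPM in WT_NP, and 5.37, 8.86 and 35.4 CPM in WT_PP. The WT groups of Dpt overlapped throughout.

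Fibronectin followed another course and was highest in PP. Fn1 had 0.316 and 1.34 CPM in KO_NN, 22.1, 20.3 and 22.7 CPM in KO_NP, and 452, 105 and 60.3 CPM in KO_PP. It had 1.96, 2.82 and 8.22 CPM in WT_NN, 6.67, 4.24 and 18.9 CPM in WT_NP, and 86.0, 13.9 and 113 CPM in WT_PP. KO libraries were below all WT libraries in NN, above all of them in NP and overlapped them in PP. Osteonectin (Sparc) had 0.92 and 0.283 CPM in KO_NN, 11.0, 11.6 and 9.15 CPM in KO_NP, and 7.86, 11.0 and 6.23 CPM in KO_PP. It had 1.76, 0 and 9.9 CPM in WT_NN, 17.1, 8.12 and 25.9 CPM in WT_NP, and 2.78, 6.46 and 50.5 CPM in WT_PP. Its treated KO libraries were all above KO_NN, and its WT groups overlapped. The receptor gene Pdgfra was close to undetected without treatment, with 5 counts summed over KO_NN and 14 over WT_NN. It had 0.131 and 0 CPM in KO_NN, 2.81, 3.33 and 3.21 CPM in KO_NP, and 2.61, 3.36 and 2.93 CPM in KO_PP. It had 0, 0 and 0.535 CPM in WT_NN, 0.774, 1.08 and 2.15 CPM in WT_NP, and 1.39, 0.203 and 6.74 CPM in WT_PP. The 6 treated KO libraries lay within a narrow band, from 2.61 to 3.36 CPM, and WT_PP spread from 0.203 to 6.74 CPM.

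**Figure D1:**
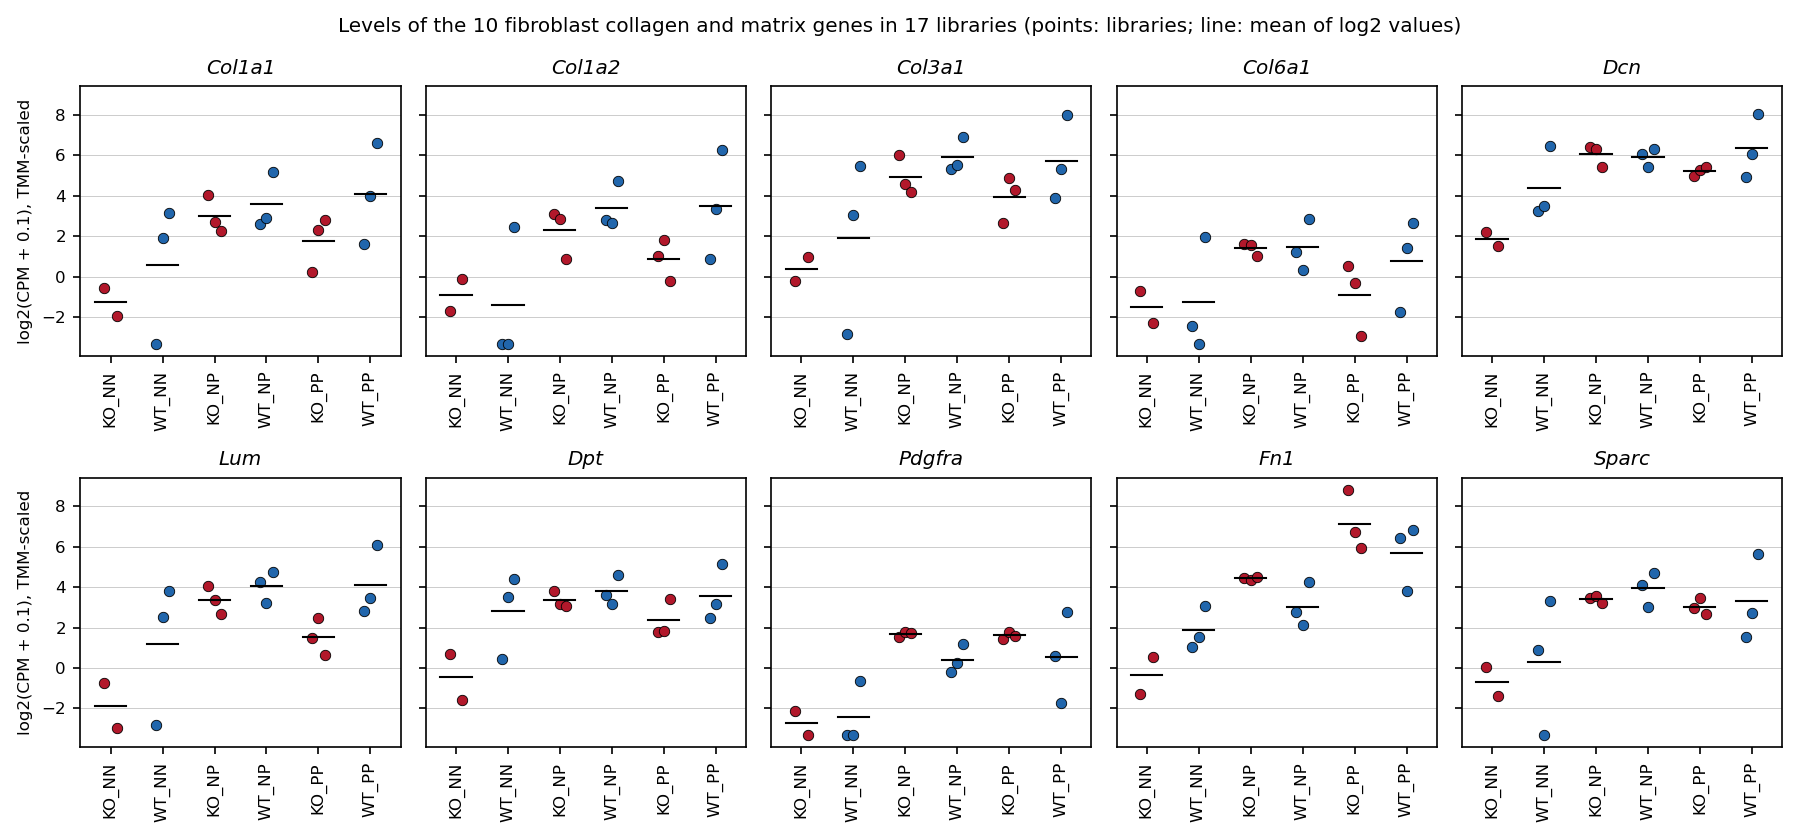
Levels of the 10 genes in every library, as TMM-scaled CPM with 0.1 added on a log axis, one panel a gene and groups along the x axis. Points are libraries and bars the group means of the log values. KO_NN has the lowest mean CPM for all 10 genes, while the lowest bar of the Col1a2 panel is that of WT_NN. Fn1 reaches 452 CPM in KO_PP.

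Ordered by group mean, WT_PP was highest for 7 of the 10 genes and KO_NN lowest for all 10. Most neighbours in that order could not be separated: for Col1a1, Col1a2, Col3a1, Col6a1 and Sparc all 5 neighbouring pairs of groups overlapped. The step above KO_NN was free of overlap for Dcn and Fn1, where WT_NN came next, and for Lum and Dpt, where KO_PP came next. Over all genes tested, 10.9% had all KO_NN libraries below all WT_NN libraries and 21.1% had all KO_PP libraries above both KO_NN libraries. Pdgfra and Fn1 each had 1 further step without overlap, WT_NP above WT_NN for Pdgfra (12% of all genes) and KO_NP above WT_NP for Fn1 (9.8% of all genes). Compared per kb of exon, Dcn was the highest of the 10 in KO_NP at 11.9 ± 4.05 CPM per kb and in WT_NP at 10.7 ± 3.18 CPM per kb (SD, n = 3 each). Dpt followed at 5.98 ± 1.76 CPM per kb in KO_NP and 8.73 ± 4.79 CPM per kb in WT_NP, and Pdgfra was lowest at 0.311 ± 0.0274 and 0.133 ± 0.0718 CPM per kb. In KO_PP the order turned, with Fn1 at 17.6 ± 18.4 CPM per kb and Dcn at 6.42 ± 1.03 CPM per kb.

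Within the fibrillar set the balance of the chains stayed in a narrower range than their levels. Col1a1 exceeded Col1a2 per kb in all 13 libraries with at least 10 counts of both, by a median of 2.67 times with a range of 1.04 to 16.7. This ratio depends on the lengths used, exon unions of 6.56 kb for Col1a1 and 12.43 kb for Col1a2. In plain counts Col1a2 was above Col1a1 in KO_NP library 20 (246 and 219), WT_NP library 7 (211 and 187) and KO_PP library 22 (80 and 44). The 16.7 was KO_PP library 24, with 212 and 24 counts, and the KO_NP range was 1.69 to 5.18 against 1.68 to 2.59 in WT_NP. Col3a1 stood at a median of 2.55 times Col1a1 per kb (0.881 to 4.34, 15 libraries). Dcn was 2.85 times Col3a1 (1.12 to 10.0, 16 libraries), and Lum was 0.382 times Dcn (0.0819 to 1.19, 15 libraries). The Lum to Dcn ratio was 0.0819 to 0.337 in KO_PP and 0.382 to 0.61 in WT_PP, and these ranges did not overlap. Nor did those of NP, 0.299 to 0.463 in KO and 0.512 to 0.822 in WT. In NN it was 0.262 in the 1 KO library with enough counts and 0.382 and 1.19 in 2 WT libraries. These differences in Lum to Dcn were noticed among 4 ratios and carry no test.

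Fn1 changed the make-up of the set in PP. It supplied 88.6%, 51.1% and 39.9% of the summed level of the 10 genes in KO_PP and 56.4%, 7.86% and 11.6% in WT_PP. In KO_PP it was the largest single part of each library. In the NP libraries its share was 9.02%, 11.6% and 19.1% in KO and 3.76%, 3.17% and 5.18% in WT. No WT_NP share reached a KO_NP share. Its share in the NN libraries was 3.17% and 17.6% in KO and 13.5%, 6.55% and 4.02% in WT. The other 9 genes summed to 9.65 and 6.25 CPM in KO_NN, 223, 154 and 95.8 CPM in KO_NP, and 58.0, 100 and 90.8 CPM in KO_PP. The WT sums of these 9 were 12.6, 40.3 and 196 CPM in NN, 171, 130 and 346 CPM in NP, and 66.4, 163 and 859 CPM in PP. WT_PP library 12 alone held 859 CPM, above every other library, and the KO_NP and KO_PP sums overlapped.

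**Figure D2:**
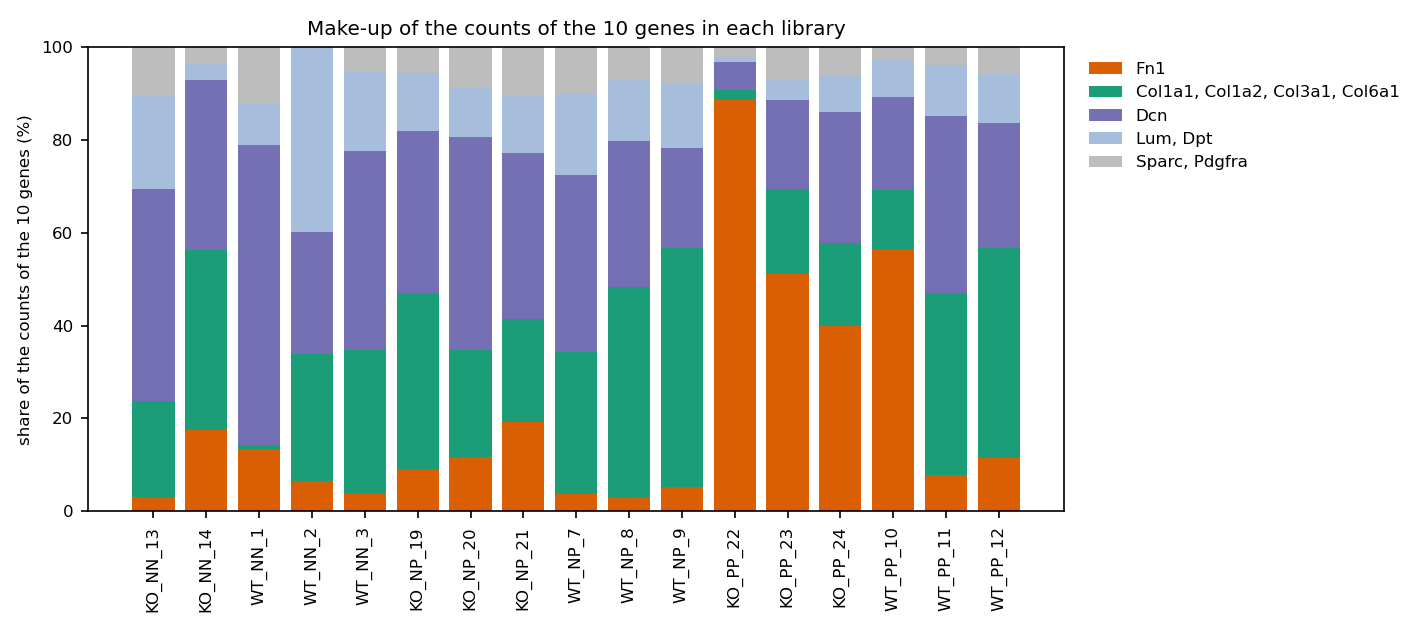
Share of the summed counts of the 10 genes, in percent, one bar a library in the order NN, NP, PP with KO left of WT. The parts of a bar are Fn1, the 4 collagen genes together, Dcn, Lum with Dpt, and Sparc with Pdgfra. Fn1 fills 39.9% to 88.6% of the KO_PP bars and 3.17% to 5.18% of the WT_NP bars.

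DSS against no treatment named gave its largest median difference in KO mice. All 10 genes had a positive log2 fold change, with a median of 4.44 against 0.02 over all 16958 genes tested. Every KO_NP library was above both KO_NN libraries for 10 of 10, as was the case for 19% of all genes. Dcn rose by a log2 fold change of 4.24 (SE 0.99, adjusted p = 0.0273) and Fn1 by 4.71 (SE 1.11, adjusted p = 0.0293) in edgeR's quasi-likelihood test with Benjamini-Hochberg adjustment over all genes. These 2 of 10 passed the threshold of 0.05, where 2.08% of all genes did. At an unadjusted p under 0.05 there were 8 of 10. Uncalled values in the same test ran from 3.07 (SE 1.90, adjusted p = 0.759) for Col6a1 to 5.49 (SE 1.94, adjusted p = 0.268) for Pdgfra, with Lum at 5.38 (SE 1.59, adjusted p = 0.12). The fit pools the spread of all 6 groups. With the 2 groups alone, edgeR called all 10, with adjusted p from 7.73e-05 for Dcn to 0.0472 for Col6a1. DESeq2, fitted to all groups, called 6. Over all genes edgeR with the 2 groups alone called 1029. In the fits of all groups DESeq2 called 813 and edgeR 352. Without KO_NN library 13, KO_NN library 14 or KO_NP library 20 none was called in the fit of all groups. Fn1 alone was called without KO_NP library 19, and Dcn alone without KO_NP library 21.

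Markers of several cell types differed between the same libraries. The summed level of 20 other fibroblast markers was 364 to 442 CPM of nuclear counts in KO_NP and 214 to 236 in KO_NN. Of these 20 markers 1 to 3 were at 0 in KO_NP and 8 or 9 in KO_NN, where Col14a1, Grem1, Rspo3, Wnt2b and Foxf1 were at 0 in both libraries. Macrophage markers summed to 172 to 705 against 38.3 to 44.1, endothelial markers to 80.5 to 182 against 11.3 to 17.2, and smooth muscle and pericyte markers to 108 to 355 against 73.8 to 83.9, KO_NP against KO_NN. Neutrophil markers had the largest difference, with sums of 421 to 793 in KO_NP and 4.62 to 7.13 in KO_NN and 7 of 8 called higher. Adipocyte markers summed to 64.8 to 166 in KO_NP and 5.54 to 10.3 in KO_NN, and red blood cell markers to 61.3 to 136 in KO_NP and 6.25 to 8.13 in KO_NN. Colonocyte markers summed to 18700 to 30000 in KO_NP and 21300 to 28800 in KO_NN. In bulk RNA, fewer cells of a type and less RNA per cell cannot be told apart. The part of these cell types in the result was not tested. Xist moved with this comparison too: both KO_NN libraries were rich in it, and of the 3 KO_NP libraries only library 21, which held Xist and Y-linked counts together. Without library 21 all 10 values were positive, with a median of 4.58. Xist then split KO_NN fully from KO_NP, so that fit cannot tell treatment from sex. With Xist as a covariate, added after the data were seen, the median was 3.12, all 10 values were positive and none was called (Dcn 2.92, adjusted p = 0.0811, and Fn1 4.23, adjusted p = 0.0875, edgeR).

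In WT mice the same comparison called none of the 10. All 10 genes had positive values, with a median log2 fold change of 1.71 against 0.14 over all genes. By edgeR 2.44% of all genes were called, none of the 10 had an unadjusted p under 0.05, and DESeq2 called none. Col1a2 at 2.86 (SE 1.45, adjusted p = 0.343) and Pdgfra at 2.85 (SE 1.44, adjusted p = 0.342) were the only ones with all WT_NP libraries above all WT_NN libraries, as for 12% of all genes. Dcn differed by 0.80 (SE 0.73, adjusted p = 0.629) and Fn1 by 1.19 (SE 0.80, adjusted p = 0.48). These values rested on WT_NN library 3, which had 1 Xist count. Without it the median was 3.65 and edgeR called Col1a2, Dcn and Pdgfra, with Dcn at 2.62 (adjusted p = 0.0362). That fit called 769 over all genes, against 414 with the library in. Col1a2 and Pdgfra then had 0 counts in all WT_NN libraries left, so their fitted folds are not given. These libraries were rich in Xist and no WT_NP library was, so that fit cannot tell treatment from sex. With all libraries in and Xist as a covariate, the median was 1.14 and 9 of 10 values were positive. Other fibroblast markers summed to 308 to 658 in WT_NP and 208 to 330 in WT_NN. Their median log2 fold change was 1.63, and 1.41 with the same floor for WT_NN.

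**Figure D3:**
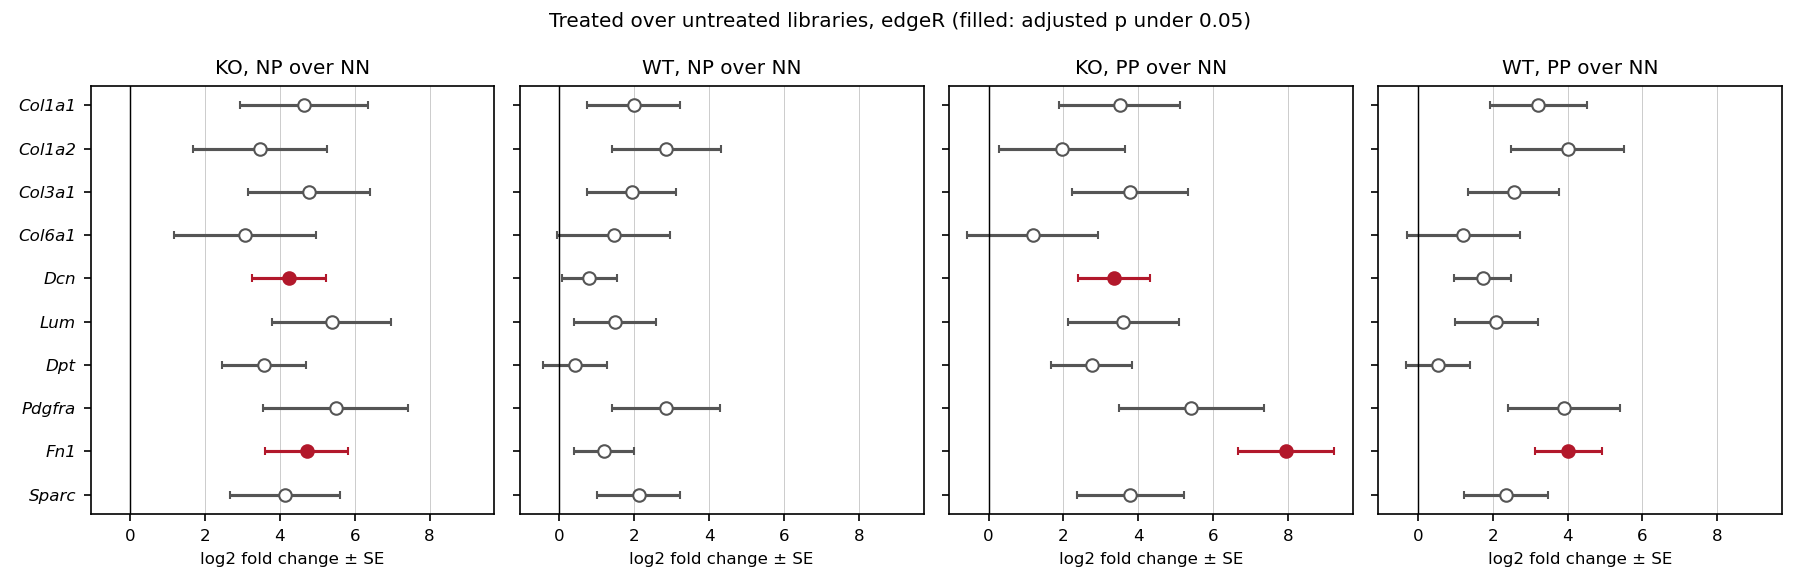
Log2 fold changes ± SE of the 10 genes for each treatment comparison in KO and in WT (edgeR), with filled symbols for an adjusted p under 0.05. Filled symbols are Dcn and Fn1 in KO for NP over NN and PP over NN, and Fn1 in WT for PP over NN.

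Antibiotic followed by DSS, against no treatment named, raised Fn1 in both genotypes. In KO, Fn1 rose by 7.95 (SE 1.29, adjusted p = 0.000606) and Dcn by 3.35 (SE 0.95, adjusted p = 0.0301), edgeR. These were 2 of 10 called against 10.3% of all genes, all 10 values were positive with a median of 3.55 against 0.06 over all genes, and 8 had all KO_PP libraries above both KO_NN libraries, against 21.1% of all genes. Col1a2 at 1.97 (SE 1.68) and Col6a1 at 1.18 (SE 1.75) were the 2 whose libraries overlapped. In WT, Fn1 rose by 4.02 (SE 0.89, adjusted p = 0.00383), 1 of 10 called against 20.1% of all genes, and it was also the 1 gene with all WT_PP libraries above all WT_NN libraries, against 20.7%. The median of the 10 was 2.46, against 0.27 over all genes. The Fn1 call held in both genotypes without any single library and with Xist as a covariate (KO 7.14, adjusted p = 0.00638, and WT 3.66, adjusted p = 0.0251). Dcn in KO did not hold with the covariate, at 1.33 with adjusted p = 0.56, and 8 of the 10 KO values were then positive with a median of 1.71. It was also lost without KO_NN library 13 or 14 or KO_PP library 23. In WT, 7 of 10 were called without WT_NN library 3, where 3640 were called over all genes, against 3409 with it. All WT_NN libraries left were then rich in Xist and no WT_PP library was, so that fit cannot tell treatment from sex. The WT median was 1.84 with Xist as a covariate and 0.54 without WT_PP library 12. Macrophage markers summed to 906 to 1470 in KO_PP and 437 to 2290 in WT_PP. WT_PP library 11 had both the lowest macrophage sum of that group, at 437, and the lowest Fn1, at 13.9 CPM, and the part of macrophage RNA in the Fn1 result was not tested.

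The antibiotic itself, PP against NP under the same DSS, called none of the 10 in edgeR in either genotype. In KO, 1.73% of all genes were called. Fn1 had 3.25 (SE 0.85, adjusted p = 0.0605), was the 1 gene with an unadjusted p under 0.05, and had all KO_PP libraries above all KO_NP libraries, against 12.8% of all genes. DESeq2 called Fn1 alone of the 10, with an adjusted p of 0.00146, and over all genes it called 1005 in KO and 1458 in WT. The other 9 were negative, from -1.89 (SE 1.53) for Col6a1 to -0.07 (SE 1.30) for Pdgfra, and the median of the 10 was -0.93 against 0.01 over all genes. Col6a1 and Lum had all KO_PP libraries below all KO_NP libraries, against 10.5% of all genes. In WT, 4.41% of all genes were called, and Fn1 had 2.83 (SE 0.83, adjusted p = 0.0644, edgeR), again the 1 gene with an unadjusted p under 0.05 and the 1 called by DESeq2 (adjusted p = 0.00359). The other 9 lay between -0.23 (SE 1.48) for Col6a1 and 1.23 (SE 1.20) for Col1a1. Without WT_PP library 12 all 9 were negative, with a median of the 10 of -1.06. The other fibroblast markers summed to 329 to 707 in KO_PP against 364 to 442 in KO_NP, and to 382 to 736 in WT_PP against 308 to 658 in WT_NP. Their median log2 fold change was -0.39 in KO and 0.55 in WT. Macrophage markers moved with Fn1 here: they summed to 906 to 1470 in KO_PP against 172 to 705 in KO_NP, with 0 of 12 called, and to 437 to 2290 in WT_PP against 46.0 to 73.9 in WT_NP, with 8 of 12 called higher. Neutrophil markers summed to 1840 to 7300 in KO_PP against 421 to 793 in KO_NP, and colonocyte markers to 9600 to 10300 in KO_PP against 18700 to 30000 in KO_NP. Red blood cell markers summed to 1000 to 16000 in KO_PP against 61.3 to 136 in KO_NP. In WT they summed to 451 to 594 in PP against 87.5 to 151 in NP. The part of these cell types was not tested. No Xist-rich library was among the PP or WT_NP libraries.

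MCJ-deficient against wild-type mice was the contrast of each deposited table, and none of the 10 genes was called in NN, NP or PP. Over all genes edgeR called 0% in NN, 1% in NP and 0% in PP. In NN all 9 genes tested were negative, with a median log2 fold change of -3.35 against 0.08 over all genes, and Pdgfra did not pass the filter on low counts. Dcn at -3.35 (SE 1.11, adjusted p = 0.572) and Dpt at -3.74 (SE 1.43, adjusted p = 0.572) were the 2 with an unadjusted p under 0.05, and DESeq2 called none. Dcn and Fn1 had all KO_NN libraries below all WT_NN libraries, against 10.9% of all genes. Without WT_NN library 3 the median was -1.68, and with Xist as a covariate it was -1.58 with 2 of 9 values positive. In this fit the covariate sets WT_NN library 3 alone apart. The 2 results are therefore not separate checks, and sex cannot be told from that library. In this condition the KO libraries had 2 of 2 rich in Xist and WT 2 of 3. Endothelial markers summed to 11.3 to 17.2 in KO_NN and 13 to 66 in WT_NN. The other fibroblast markers summed to 214 to 236 in KO_NN and 208 to 330 in WT_NN. The 11 of them that were tested had a median log2 fold change of -2.41.

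In NP, 7 of 10 genes were negative and the median was -0.62, against 0.03 over all genes. Fn1 at 1.13 (SE 0.45, adjusted p = 0.453) and Pdgfra at 1.22 (SE 0.57, adjusted p = 0.554) had all KO_NP libraries above all WT_NP libraries, against 9.8% of all genes. Fn1 was the 1 gene with an unadjusted p under 0.05, and DESeq2 called none. Without WT_NP library 9, which held the highest Fn1 of its group, Fn1 had 1.99 with an adjusted p of 0.0128 in edgeR. The direction of the set also turned without that library, with 5 of 10 values positive and a median of 0.16. Dcn, with 0.14 (SE 0.31), was nearest to 0 of the 10. Beside these, 12 macrophage markers summed to 172 to 705 in KO_NP and 46.0 to 73.9 in WT_NP, and 6 of the 12 were called higher in KO. Their part in the Fn1 and Pdgfra values was not tested. The other fibroblast markers summed to 364 to 442 in KO_NP and 308 to 658 in WT_NP, with a median log2 fold change of -0.07.

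In PP, 8 of 10 genes were negative and the median was -1.89, against 0.01 over all genes. Lum at -3.16 (SE 0.92, adjusted p = 0.938, edgeR) had all KO_PP libraries below all WT_PP libraries, against 6.21% of all genes. Col1a2 differed by -3.86 (SE 1.23, adjusted p = 0.938), and 5 genes had an unadjusted p under 0.05. DESeq2, which called 91 over all genes, called 2 of the 10, Col1a2 (adjusted p = 0.0155) and Lum (adjusted p = 0.0168). WT_PP library 12 carried most of these differences: without it Lum had -1.43, Col1a2 -1.50 and Dcn -0.34, and the median was -0.45. Fn1 at 1.57 (SE 0.90, adjusted p = 0.961) and Pdgfra at 0.08 (SE 1.04, adjusted p = 0.998) were the 2 positive values. Smooth muscle and pericyte markers summed to 83.1 to 193 in KO_PP and 165 to 1000 in WT_PP, with a median log2 fold change of -2.42. The other fibroblast markers summed to 329 to 707 in KO_PP and 382 to 736 in WT_PP, with a median of -0.36. The largest positive medians were 4.45 for red blood cell, 2.19 for neutrophil and 2.05 for adipocyte markers. The part of these cell types was not tested.

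**Figure D4:**
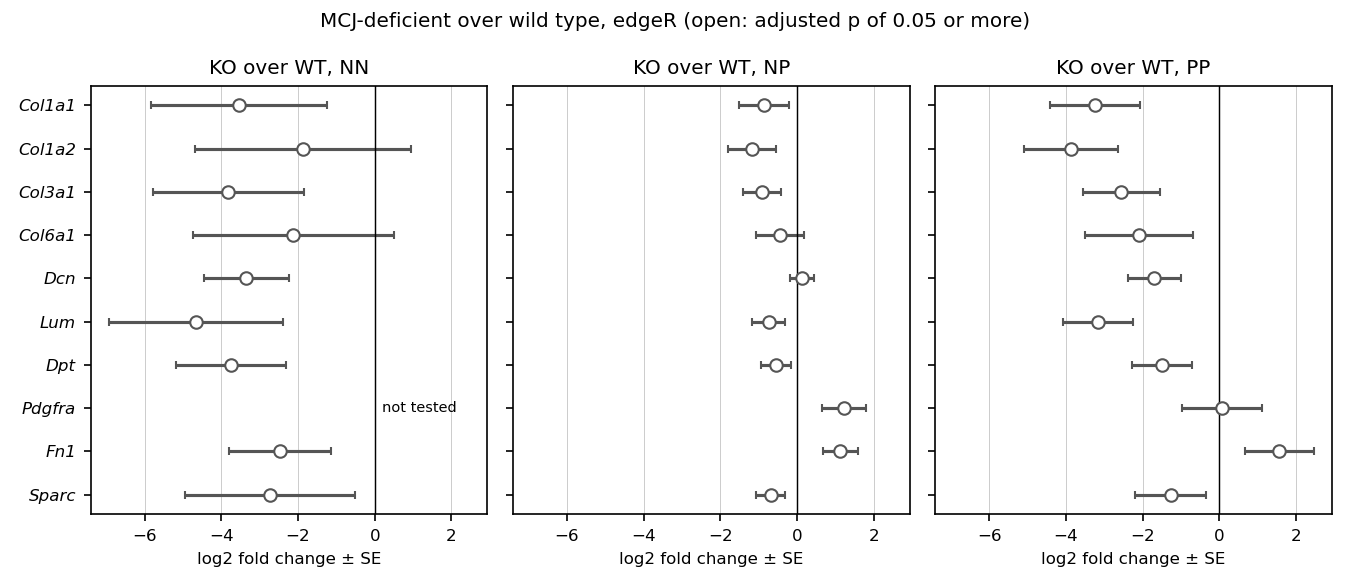
Log2 fold changes ± SE of the 10 genes in KO over WT in NN, NP and PP (edgeR), all with an adjusted p of 0.05 or more. The values lie left of 0 for all 9 genes tested in NN, and Fn1 and Pdgfra lie right of 0 in NP and PP, as does Dcn at 0.14 in NP.

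The difference of the MCJ contrast between conditions was tested as an interaction term, and edgeR called none of the 10. For NP minus NN all 10 terms were positive with a median of 2.74, and 4 had an unadjusted p under 0.05, led by Dcn at 3.44 (SE 1.15, adjusted p = 0.675) and Fn1 at 3.51 (SE 1.28, adjusted p = 0.766). For PP minus NP none had an unadjusted p under 0.05, and for PP minus NN 1 had, Fn1 at 3.93 (SE 1.28, adjusted p = 0.409). DESeq2 called none of the 10 in any of the 3. Without WT_NN library 3, 6 of 10 terms of NP minus NN were positive with a median of 1.05. For PP minus NN 8 of 10 terms were positive with a median of 1.47, and without that library 3 were, with a median of -0.82. For PP minus NP the median was -1.63, and -0.03 without WT_PP library 12. Over all genes 0%, 0% and 0.0531% were called. The DSS response of KO and of WT, called for 2 genes in one and for none in the other, was therefore not shown to differ.

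Other matrix genes were read from 6 lists, all genes outside the 10. Their counts for DSS stand against 2.08% of all genes called in KO and 2.44% in WT. Of the other fibrillar and associated collagens 0 of 10 were called for DSS in KO and 1 of 10 in WT. That 1 was Col14a1, a collagen on the fibril surface, with 282 counts summed over WT_NP and 0 over WT_NN, at least 59.3-fold higher when WT_NN is set at a floor of 3 counts in total. Basement membrane collagens and laminins had 1 of 18 called in KO, Col4a1 at 4.39 (adjusted p = 0.0208, edgeR), and 0 of 18 in WT. Collagen folding, processing and crosslinking genes had 0 of 22 called in either genotype. In the list of leucine-rich proteoglycans, microfibrils and matricellular proteins 2 of 25 rose in KO, the proteoglycan Vcan at 5.58 (adjusted p = 0.00439) and Igfbp7 at 4.59 (adjusted p = 0.0171), and 2 of 25 in WT, Vcan at 6.25 and the elastic fibre gene Efemp2, at least 36.6-fold higher. Vcan had 2 counts summed over WT_NN, so its WT fold is imprecise. The hyaluronan receptor Cd44 was the 1 of 18 matrix receptors called in KO, at 4.26 (adjusted p = 0.00485), with 0 of 18 in WT. The signal component Smad4 was the 1 of 20 PDGF and TGF-beta genes called in WT, at 1.06, with 0 of 20 in KO. None was called lower. The medians in KO were 3.54 for the collagens, 2.19 for the basement membrane, 1.89 for folding, 3.53 for the proteoglycan list, 1.17 for the PDGF and TGF-beta genes and 0.94 for the receptors. With genes at 0 in KO_NN set at their bound, these medians were 3.54, 1.77, 1.88, 3.35, 1.28 and 0.84. The WT medians in the same order were 1.57, 0.87, 0.60, 1.24, 0.93 and 0.27, and at the bound 1.57, 0.87, 0.51, 1.24, 0.93 and 0.27.

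After antibiotic and DSS, counts of these genes stand against 10.3% of all genes called in KO and 20.1% in WT. The crosslinking enzyme Lox rose by 7.44 in KO and 6.22 in WT, and the prolyl hydroxylase subunits P4ha1 and P4hb rose by 3.05 and 1.52 in KO and by 2.43 and 1.42 in WT, 3 of 22 folding genes in each. Lox had 1 count summed over KO_NN and 6 over WT_NN, so its folds are imprecise. Col5a2, a chain that joins type I fibrils, rose by 6.49 in KO and 4.22 in WT. It had 1 count summed over KO_NN, and 843 of its 988 counts in WT_PP lay in 1 library, so its folds are imprecise too. Of 20 PDGF and TGF-beta genes 4 rose in KO, and 6 rose and 2 fell in WT. Among them Tgfb1 rose by 4.95 in KO and 5.18 in WT. The fibronectin receptor subunit Itga5 rose by 4.90 in KO and 3.11 in WT. Antibiotic against none under DSS called Vcan, Thbs1 and Cd44 higher in both genotypes, at 3.07, 2.80 and 2.49 in KO and at 4.43, 2.37 and 4.14 in WT. KO against WT called Vcan at 2.53 (SE 0.37, adjusted p = 0.0103, edgeR) and Cd44 at 2.28 (SE 0.28, adjusted p = 0.00341) in NP, and none of the 6 lists in NN or PP. Macrophages make Vcan and Cd44 as well as fibroblasts do. The macrophage marker sum of 172 to 705 in KO_NP against 46.0 to 73.9 in WT_NP stands beside both values, and its part in them was not tested.

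Across the 17 libraries Fn1 had the lowest median correlation with the other members. The 28 pairs among the 8 genes other than Fn1 and Pdgfra had Pearson correlations of log2 CPM from 0.57 to 0.96, with a median of 0.82. Col1a1 and Col3a1 were the closest pair at 0.96, and 0.94 once group means were removed. The 8 pairs of Pdgfra with those genes had a median of 0.68, and the 9 pairs of Fn1 with the others a median of 0.49, from 0.3 with Col6a1 to 0.79 with Pdgfra. With group means removed the medians were 0.76, 0.62 and 0.33. Sparc had 0.84 with Col1a2 and with Dcn and 0.62 with Col1a1, and with group means removed it had 0.74, 0.77 and 0.27. These correlations describe 17 libraries that share groups, sex and cell make-up, and carry no test.

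**Figure D5:**
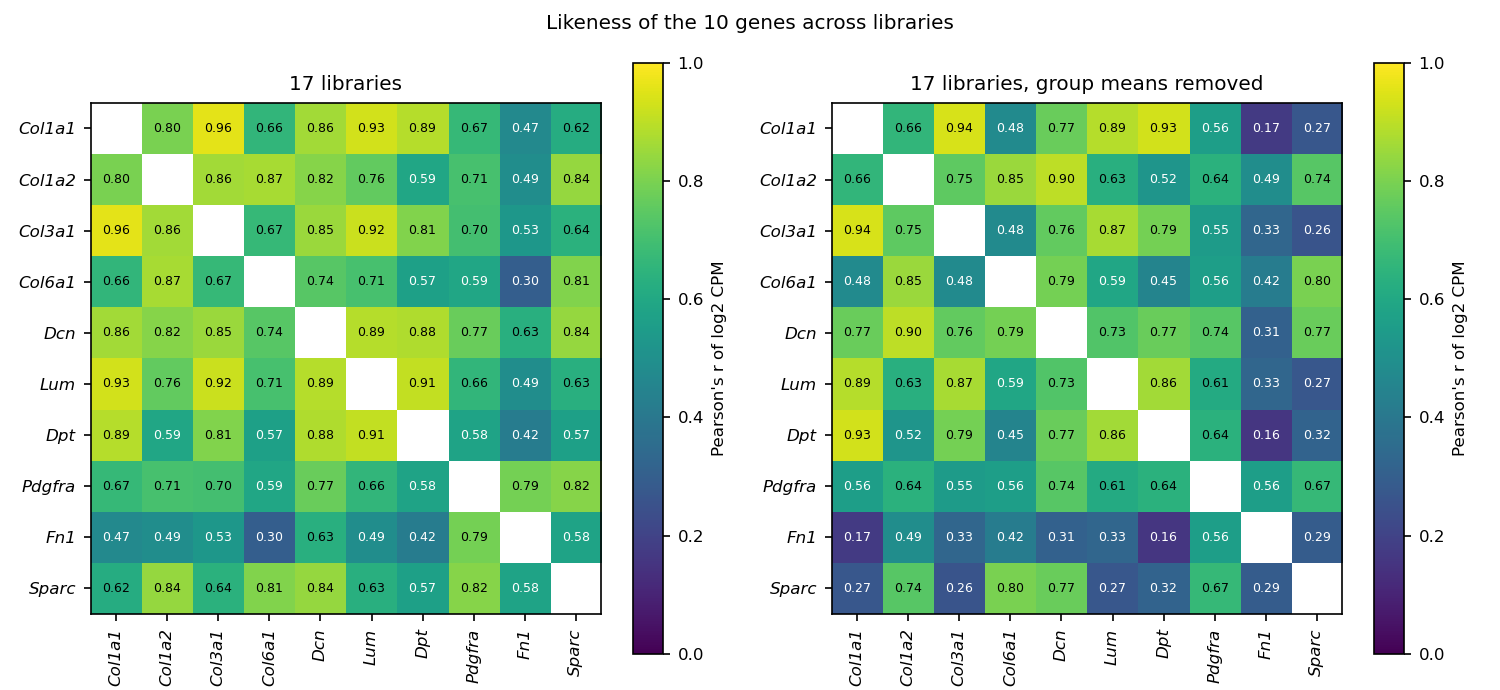
Pearson correlations of log2 CPM between the 10 genes over the 17 libraries, at left as measured and at right with group means removed. The row of Fn1 is the darkest, at 0.3 to 0.79 at left, and Col1a1 with Col3a1 is the closest, at 0.96.

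Genes outside the set with the pattern most like the mean of the 10 were Eln, Sox7 and Igfbp7, each at 0.94, Serpinf1 at 0.93, Col5a2 and Bgn at 0.92, Ppic, Tnfaip6 and Col4a2 at 0.91, and Olfml3 at 0.9. Eln encodes elastin, Bgn a proteoglycan related to decorin, and Col4a2 a basement membrane chain. Of these 10, 7 were again among the 10 most alike without WT_PP library 12. The Y-linked gene Kdm5d then came second, at 0.93, and the part of sex in these patterns was not tested. The 3 genes most like single members differed by member. Serpinf1 was among them for Col1a1 (0.93), Col3a1 (0.92), Dcn (0.94), Lum (0.89) and Dpt (0.89). Col1a2 was matched by the microfibril gene Fbn1 at 0.95 and by Col6a2 at 0.93, and Col6a1 by the tenascin gene Tnxb at 0.93. Sparc was nearest to Rhoj at 0.96 and to Cldn5, an endothelial junction gene, at 0.95. Pdgfra was nearest to Eng and C1s2, both at 0.94. Fn1 was nearest to Pik3ap1 at 0.96 and to Flna and Elk3 at 0.95.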

How the data were processed

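Colon macrophage preparations of 17 mice were sequenced as mRNA libraries, and per the file headers the authors deposited 3 tables of raw read counts per gene, 1 for each condition, with 27179 NCBI gene numbers in each. The submitters' processing notes name CASAVA 1.8.2, FastQC, Trim Galore, STAR 2.5.4, DESeq2 and the mm10 build. The counting program, annotation and strand setting are not given in the sources used here. Gene numbers were matched to symbols through RefSeq (25275) and GENCODE M21 (18), and 1886 numbers without a symbol, 1.39% to 7.32% of the counts of a library, stayed in the fits. The 3 tables were joined by gene number.

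Counts were tested in R 4.3.3 with edgeR 4.0.16 (quasi-likelihood F test, TMM factors of 0.699 to 1.294, filterByExpr) and Benjamini-Hochberg adjustment over all genes tested, at a threshold of 0.05. KO was tested against WT in a fit of each condition's table (13559, 14452 and 14556 genes). Treatments and interactions were tested in 1 fit of all 17 libraries (16958 genes). Alternatives were DESeq2 1.42.0, its size factors, totals of nuclear genes, no filter, mitochondrial genes left out, other sets of samples, the mouse number as a block and each library left out, and, chosen after seeing the data, Xist as a covariate and both libraries that stood apart left out. On data simulated for DSS in KO (16958 genes, 50 for each fold size), edgeR recovered 14 and 20 of 50 genes at log2 fold changes of 2 and -2 and 34 and 31 of 50 at 4 and -4, with 1 false call among 100. No label says whether the mice shared litters or cages, and p-values measure the spread between these mice.

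Descriptions used Python 3.11.15 and pandas 2.3.3. Correlations used log2 CPM with a prior count of 2. Marker sums are CPM of nuclear counts. Exon lengths and positions are from GENCODE M21, and levels per kb divide by the union of exons.

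The 10 members and all gene lists were chosen with earlier results of these data known. Named are all 10 members, of each list the up to 3 called genes with the smallest p in a comparison (where none was called, values only), and the most alike genes by correlation. From those the text gives a selection. Counting errors alone at 10 counts are large, so genes under 10 counts in a library are imprecise there. Pairs of libraries within a group differed by far more than sampling noise, and none was counted as a duplicate.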

Additional observations from a re-analysis of the deposited data

Results flagged for a closer look

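Fn1 stood on opposite sides in 2 conditions: both KO_NN libraries were below all WT_NN libraries, and all KO_NP libraries were above all WT_NP libraries. Of all genes tested, 10.9% had the first of these separations and 9.8% the second. The interaction, NP minus NN, was 3.51 on the log2 scale (SE 1.28) and did not pass the test, with an adjusted p of 0.766 in edgeR. The macrophage marker sum was 172 to 705 CPM of nuclear counts in KO_NP and 46.0 to 73.9 in WT_NP, against 38.3 to 44.1 in KO_NN and 15.4 to 40.1 in WT_NN. Its part in the Fn1 difference was not tested.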

How the results depend on the processing

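The 119 values of single genes and comparisons were recomputed under the alternatives, 1795 values in all, of which 90 had another sign. Of 5 called values none changed sign, and 15 of their alternative values were not called. Of the uncalled values 55 became called, and 150 moved by over 1 SE without a call.

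Counts of the 10 genes called moved as follows, with the cause not tested. For KO against WT, NP ranged from 0 to 1 over the libraries left out in turn, and DESeq2 called 2 in PP. For the antibiotic in KO, 1 was called without the filter, by DESeq2 and in the fit of the 2 groups, and 0 to 1 with a library left out (1 without KO_PP library 24). In WT it was 1 without the filter and by DESeq2, and 0 to 1 with a library left out (1 without WT_PP library 11). For DSS in KO, DESeq2 called 6, the fit of the 2 groups 10 and the Xist covariate 0, and leaving out a library gave 0 to 2. For DSS in WT, 4 were called with both libraries that stood apart left out, and 0 to 3 with 1 left out. For PP against NN in KO, DESeq2 and the fit of the 2 groups called 5, the Xist covariate 1 and the fit without both libraries 4, with 1 to 2 over the libraries left out. In WT it was 3 without the filter, 3 by DESeq2, 4 without both libraries, and 1 to 7 with 1 left out.

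Some mouse numbers in the titles recur across groups, and in same-numbered libraries the deviations from group means had correlations of -0.4 to 0.06. With groups of 2 or 3 libraries these values cannot decide whether the numbers pair the samples. With the numbers 1 to 3 as a block, 1 gene was called for PP against NN in KO and 4 in WT. In KO against WT in NN 4 of 9 values were then positive with a median of -0.15, and for the interaction of PP minus NN 5 of 10 with a median of -0.01.

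Counts over all genes also moved. DESeq2 called 293 for KO against WT in NN (0 by edgeR), 364 in NP (145) and 91 in PP (0), 813 for DSS in KO (352), 1209 for DSS in WT (414), 1005 for the antibiotic in KO (294), 1458 in WT (748), and 2858 for PP against NN in KO (1746). For the interactions (NP minus NN, PP minus NP, PP minus NN) it called 161, 90 and 192, against 0, 0 and 9 by edgeR. The fit of the 2 groups called 1029 for DSS in KO, 42 for DSS in WT, 802 for the antibiotic in KO and 1612 for PP against NN in WT. Without the filter it was 9 for KO against WT in NN, 353 in NP, 558 for the antibiotic in KO, and 16, 36 and 38 for the interactions. Totals of nuclear genes gave 655 for the antibiotic in KO and 639 for DSS in WT, and the fit of all libraries 3, 1 and 8 for KO against WT in NN, NP and PP. The Xist covariate gave 31 for the antibiotic in KO, 516 for PP against NN in KO, 86 for DSS in WT and 1629 for PP against NN in WT. Without both libraries that stood apart it was 77 and 358 for the antibiotic in KO and WT and 646 for DSS in WT. Leaving out 1 library gave 20 to 203 for KO against WT in NP, 45 to 340 and 267 to 769 for DSS in KO and WT, 12 to 634 and 215 to 1313 for the antibiotic, and 552 to 1971 and 2118 to 3640 for PP against NN. For KO against WT it gave 0 to 1 in NN and 0 to 6 in PP, and for the interactions 0 to 41, 0 to 29 and 1 to 78.

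Depth limits the low genes. Pdgfra had 5 counts over KO_NN and 14 over WT_NN, and Col1a2 had 0 in 2 WT_NN libraries, so fold changes against NN are imprecise. In the data simulated for DSS in KO, 14 of 50 genes were recovered at a log2 fold change of 2, so an uncalled gene may still differ by that much.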
